A study of Homo sapiens with 414 samples.

Results

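Single LNCaP cells that had received a non-targeting siRNA were split by their mitochondrial share, the percentage of a cell's gene reads that fell on genes encoded in the mitochondrial genome. The cells were selected on this share alone: of the 401 single cells used from the series, 35 control cells had a share over 20 percent (high cells), while 55, 58 and 61 control cells of batches 1, 2 and 3 had 20 percent or less (low cells). LNCaP is a line of human prostate carcinoma cells that respond to androgen. All control cells carried the Dharmacon non-targeting siRNA and no other agent, and the remaining cells, the knockdown cells, carried an IDT siRNA against SULT2B1, a sulfotransferase of cholesterol and related sterols. Cells were captured one by one on a Fluidigm C1 plate of the large size class, so each cell was its own library, and sites holding several cells, and cells that took up the dead-cell stain ethidium homodimer-1, had been excluded under the microscope. The control cells came in 3 batches of 76, 66 and 67 cells, and nothing in the labels says whether the batches were separate cultures.

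Mitochondria carry a small genome of their own, which encodes core subunits of the respiratory chain and of ATP synthase together with the RNAs needed to translate them. All other mitochondrial proteins are encoded in the nucleus, translated in the cytosol and imported. In single-cell sequencing the share of reads from the mitochondrial genome is often used to filter cells, and damaged cells and cells rich in mitochondria can both show a high share. What raised it in these cells was not tested. Because the share chose the cells, mitochondrial reads, total reads and the reads left for nuclear genes are given as descriptions only, and tests were limited to nuclear genes as a share of nuclear reads (CPM, the usual scaling of counts to a fixed total, here of nuclear reads).

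High cells made up 27.6 percent of control cells in batch 1 (21 cells), 12.1 percent in batch 2 (8 cells) and 8.96 percent in batch 3 (6 cells). The highest cells were concentrated in batch 1, whose high cells ranged from 22.01 to 95.2 percent with a median of 49.3 percent. All 14 control cells over 40 percent were in that batch. High cells of batch 2 lay between 21.4 and 28.2 percent (median 23.6) and those of batch 3 between 21.2 and 36.02 percent (median 29.6). Low cells had medians of 6.03, 5.97 and 5.65 percent in batches 1, 2 and 3. Few cells lay below but near the limit: 4 between 15 and 20 percent and 12 in all between 10 and 20 percent. Above it, 10 of the high cells lay between 20 and 25 percent. The 3 cells nearest above had 21.2, 21.2 and 21.4 percent, and the 3 nearest below had 17.6, 16.6 and 16.6 percent.

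**Figure D1:**
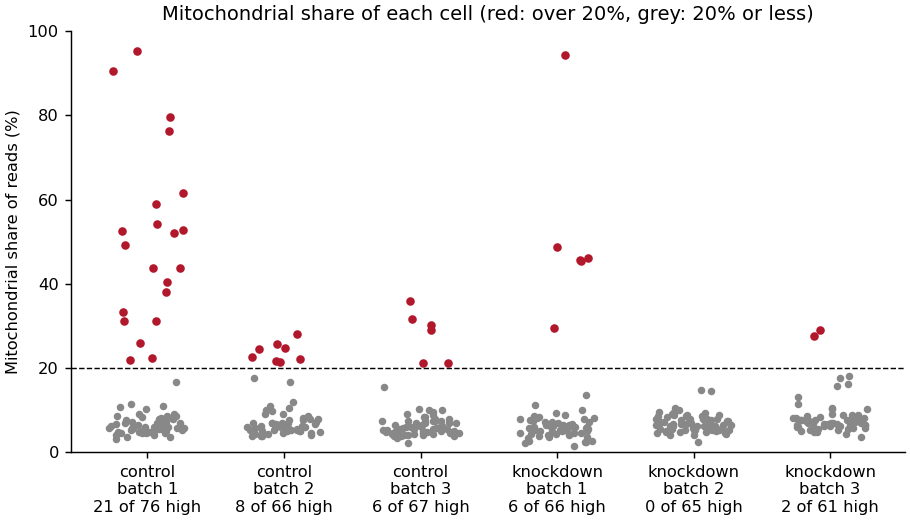
Mitochondrial share of each cell, in percent of the cell's reads in genes, by arm and batch; red points are cells over the limit of 20 percent (dashed line), grey points the rest. Control batch 1 holds 21 high cells of 76, and its high cells spread up to 95.2 percent, while those of batches 2 and 3 stay at or below 36.02 percent.

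Mitochondrial reads per cell were higher and nuclear reads lower in the high cells. The median high cell held 410594, 180732 and 217276 mitochondrial reads in batches 1, 2 and 3, against 69079, 73777 and 70892 in the median low cell. Its nuclear reads were 441988, 603188 and 599348, against 1085993, 1063790 and 1119270. The 32 mitochondrial genes in the table comprise 13 that encode proteins and 19 transfer RNAs. Among the protein genes the mix of transcripts was close in both classes. MT-CO1, a core subunit of cytochrome c oxidase, took 18.1 ± 1.52 percent of mitochondrial reads in high and 17.97 ± 1.24 percent in low libraries (SD, n = 3 batches). MT-CYB, the mitochondrial subunit of complex III, took 17.0 ± 0.515 and 17.4 ± 0.420 percent. MT-ND5, a proton-pumping subunit of complex I, took 1.80 ± 0.351 and 2.20 ± 0.168 percent, with overlapping batches. MT-ATP8, a small subunit of ATP synthase, was the exception among the 13, with 0.450, 0.520 and 0.451 percent in high against 0.402, 0.450 and 0.419 percent in low libraries.

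High cells showed fewer nuclear genes than low cells at the same number of reads. Each cell was thinned to 50000 nuclear reads, a depth that every control cell reached, and genes with at least 1 read were counted. The median high cell then had 3368, 3620 and 3580 genes in batches 1, 2 and 3, and the median low cell had 5677, 5554 and 5365. High cells thus had 59.3, 65.2 and 66.7 percent of the low cells' number, a mean difference of -2009 genes (SD 269.9, n = 3 batches). The direction was the same in all 3 batches, and the two-sided exact permutation test within batches gave p = 0.25, the smallest value that 3 pairs allow. Without thinning, the medians were 5059, 5517 and 5868 genes in high against 9070, 8846 and 8671 in low cells. Cells of 10 to 20 percent had a median of 4796 genes at the thinned depth, between the 5552 of cells with 5 to 10 percent and the 3634 of cells with 20 to 40 percent.

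**Figure D2:**
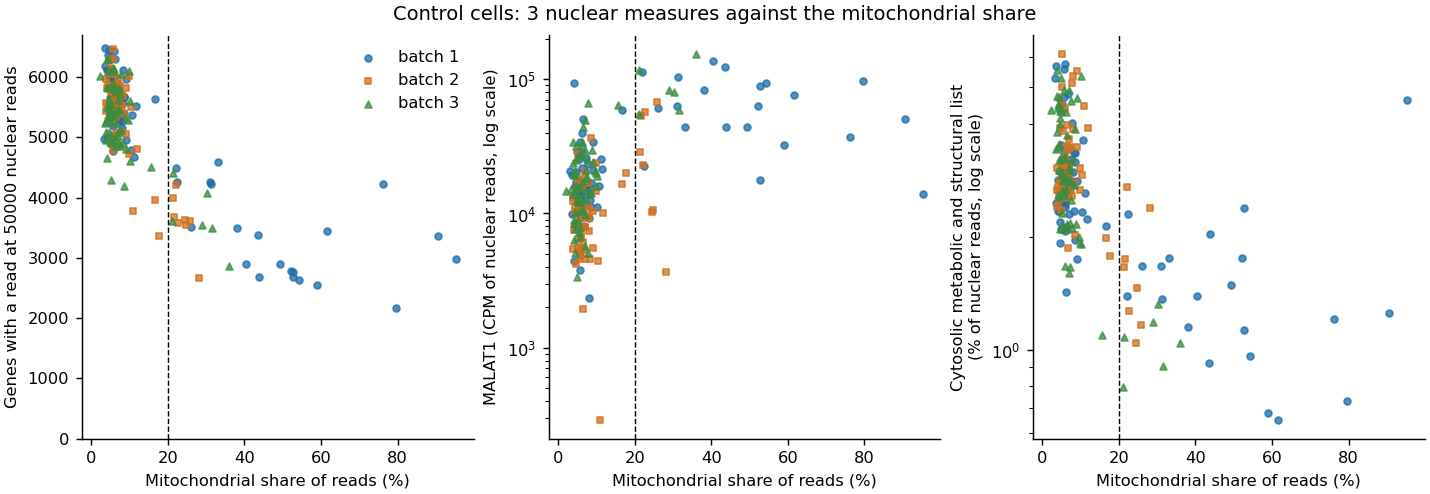
Each point is a control cell, placed by its mitochondrial share in percent, with the limit of 20 percent dashed; the panels give genes with a read at 50000 nuclear reads, MALAT1 in CPM of nuclear reads (log axis), and the summed share of the cytosolic metabolic and structural list in percent of nuclear reads (log axis). Median genes were 5552 in cells of 5 to 10 percent and 2842 in cells over 40 percent; median MALAT1 was 12960 and 57110 CPM in the same cells.

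For the comparison of nuclear genes, reads were summed over the cells of each class in each batch, which gave 3 high libraries of 8469215, 4596075 and 3476405 nuclear reads and 3 low libraries of 58148740, 62702367 and 68763730. An edgeR quasi-likelihood fit with batch as a block tested 16191 nuclear genes, and fold changes below are high over low on the log2 scale. Few genes passed an adjusted p of 0.05: 2 were higher (0.0124 percent of the genes tested) and 6 were lower (0.0371 percent). One of the higher genes, MTATP6P1, is a nuclear copy of mitochondrial sequence whose reads are not independent of the way the cells were chosen, so 7 calls remain. At an unadjusted p under 0.05 there were 2091 genes, of which 1890 were lower. The 3 high libraries all lay above the 3 low ones for 850 genes (5.25 percent) and all below them for 4071 (25.1 percent). Among the 4326 genes with a mean of at least 50 CPM these shares were 11.2 and 18.1 percent, and among the 276 genes of at least 500 CPM they were 13.4 and 37.3 percent. The median log2 fold change over all genes was -1.0, and it depended on the handling: it was -0.85 with TMM scaling, -0.68 with DESeq2, -0.52 with cells thinned to 50000 nuclear reads and -0.20 without the batch block. Genes with few reads drew the median down, since it was -0.24 for genes of 50 to 500 CPM and -0.32 for genes over 500 CPM. The high libraries hold 6 to 21 cells each against 55 to 61, and 829 tested genes had no read in any high cell.

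MALAT1, a long noncoding RNA that stays in the nucleus at speckles, rose in the high cells. It lies on chromosome 11 from 65497688 to 65506516 on the plus strand (GRCh38, as are the positions below). Its level was 67740, 28570 and 92910 CPM in the high libraries of batches 1, 2 and 3 and 18690, 10460 and 18710 CPM in the low ones. Every high library was above every low library, though batch 2 was the lowest in both classes. The log2 fold change was 1.87 (SE 0.15, adjusted p = 0.00136, edgeR). Of the 35 high cells, 33 lay above the median low cell of their batch. The class means were 63070 ± 32420 and 15950 ± 4757 CPM (SD, n = 3), so MALAT1 alone took between 2.86 and 9.29 percent of the nuclear reads of a high library.

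The next genes in order of p missed the threshold, and their values are given without a call. NEAT1, the RNA scaffold of nuclear paraspeckles, had 6090, 1971 and 11380 CPM in high and 1931, 1092 and 2168 CPM in low libraries. The high library of batch 2 was below the low library of batch 3, and the fold change was 1.63 (adjusted p = 0.0825, edgeR). SNHG1, a host gene of small nucleolar RNAs, had 923.5, 1061 and 885.1 CPM against 295.3, 351.7 and 215.7 CPM, with no overlap (log2 fold change 1.76, adjusted p = 0.0872, edgeR). Yet it was uneven among the cells, as 19 of 35 high cells were above their batch's low median. BDP1, a subunit of the initiation factor of RNA polymerase III, had 1701, 1150 and 1769 against 754.9, 548.8 and 640.1 CPM. N4BP2L2 had a log2 fold change of 1.57 and TANC1 of 1.81, again with no overlap between classes (adjusted p = 0.217 and 0.246, edgeR).

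RPL3, a protein of the large ribosomal subunit encoded on chromosome 22 (39312882 to 39320389, minus strand), fell in the high cells. It had 266.8, 252.0 and 494.8 CPM in high and 1604, 1408 and 1652 CPM in low libraries (log2 fold change -2.27, SE 0.28, adjusted p = 0.0257, edgeR). All 35 high cells were below the median low cell of their batch. EEF1A1P5, a processed pseudogene of the elongation factor gene EEF1A1 on chromosome 9 (133019486 to 133020874, plus strand), showed the same count of 35 of 35 cells. Its levels were 490.2, 429.7 and 514.6 against 2136, 1815 and 2169 CPM (log2 fold change -2.09, SE 0.23, adjusted p = 0.0116, edgeR). Reads of this copy and of its parent can be exchanged in counting. EEF1A1, looked up for that reason after the values were seen, had 556.8, 207.6 and 462.0 against 858.5, 768.2 and 1022 CPM and did not pass (log2 fold change -1.22, adjusted p = 0.349, edgeR).

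ENO1, the glycolytic enzyme enolase on chromosome 1 (8861000 to 8879250, minus strand), had 648.8, 819.2 and 291.1 CPM in high against 2496, 2765 and 2547 CPM in low libraries. It fell as well (log2 fold change -2.27, SE 0.29, adjusted p = 0.0268, edgeR), and 34 of 35 high cells were below their batch's low median. C6orf62, on chromosome 6 (24704861 to 24720836, minus strand), had 189.5, 294.4 and 347.2 CPM against 1403, 1634 and 1329 CPM (log2 fold change -2.43, SE 0.29, adjusted p = 0.0235, edgeR). Again 34 of 35 high cells were below the low median. At the thinned depth 28 of 35 high cells had a read of C6orf62, against every low cell.

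BROX, a Bro1-domain protein that works with the membrane-remodelling ESCRT machinery, lies on chromosome 1 (222712553 to 222735196, plus strand). It had 596.7, 827.7 and 1163 CPM against 3186, 2914 and 3056 CPM (log2 fold change -1.88, SE 0.24, adjusted p = 0.0268, edgeR), and 31 of 35 high cells were below the low median. SLC30A4, a zinc transporter on chromosome 15 (45479611 to 45522807, minus strand), had 597.5, 593.1 and 368.5 CPM against 1958, 1744 and 2207 CPM (log2 fold change -1.95, SE 0.27, adjusted p = 0.0475, edgeR). Its high libraries rested on few cells: 1 cell gave 84.9 percent of the reads in batch 2 and 89.5 percent in batch 3. The median high cell had 147.3, 114.7 and 47.3 CPM of SLC30A4, against 1277, 1320 and 1437 CPM in the median low cell.

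The directions of these 7 calls held in all 15 alternative fits, but the calls did not. MALAT1 passed in 11 of 15 alternatives with adjusted p up to 0.130, and the 6 lower genes passed in 7 to 10 of 15, with adjusted p up to 0.305. Without batch 1, which holds 21 of the 35 high cells, MALAT1 passed and none of the 6 lower genes did. With cells thinned to 50000 nuclear reads 43 genes passed, including these 7, and NEAT1, SNHG1, GAPDH and LDHA among the other genes described here.

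**Figure D3:**
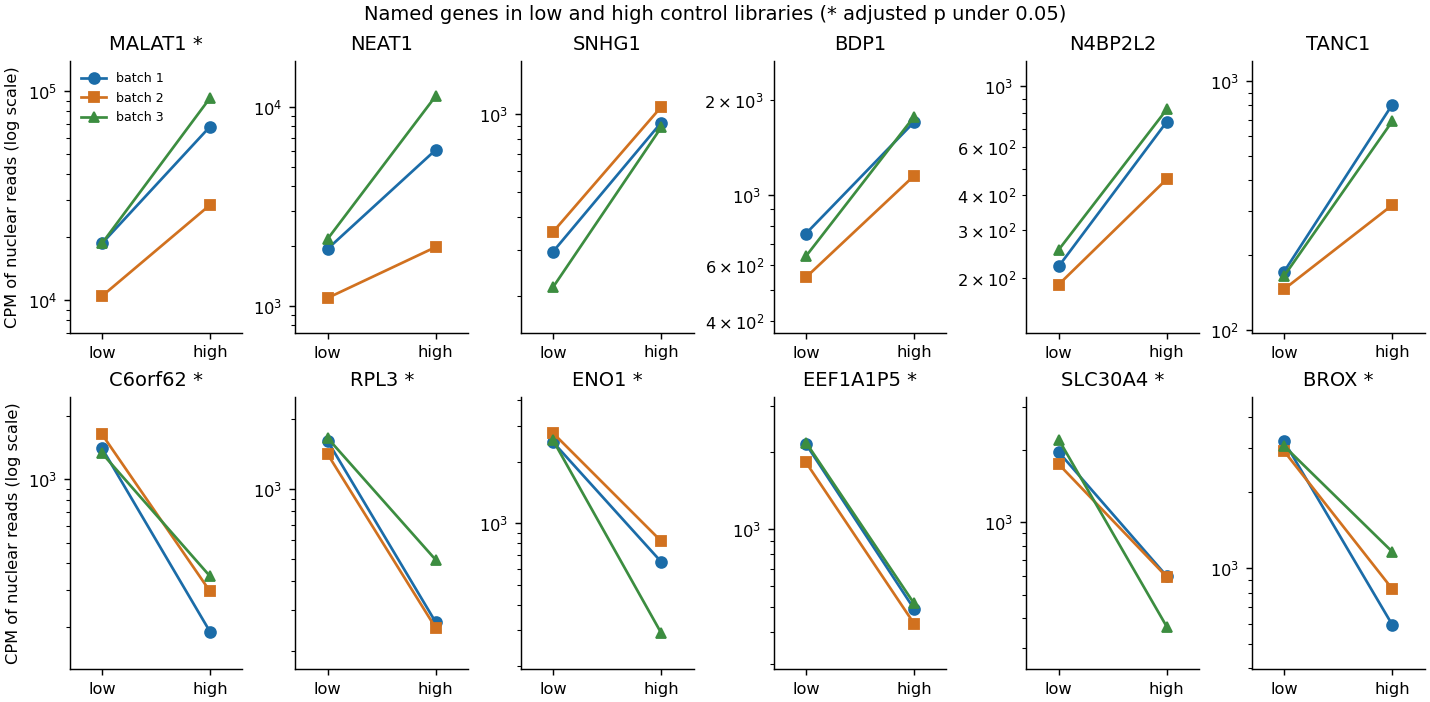
Level of each named gene in the low and high libraries of the 3 control batches, in CPM of nuclear reads on log axes; lines join the libraries of a batch and an asterisk marks an adjusted p under 0.05 (edgeR). MALAT1 goes from 18690 to 67740 CPM in batch 1, and all 6 genes of the lower row have every high library below every low library.

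Along the mitochondrial share, the median of MALAT1 stepped up from the cells of 10 to 20 percent to those of 20 to 40. The median of ENO1 also declined below the limit. Cells close to the limit were mixed: those of 15.5, 16.55, 16.59 and 17.62 percent had 64740, 16720, 59360 and 19900 CPM of MALAT1. Median MALAT1 was 13730 CPM in the 46 cells of up to 5 percent, 12960 CPM in the cells of 5 to 10 percent, 17830 CPM in the 12 cells of 10 to 20 percent, 59060 CPM in the 21 cells of 20 to 40 percent and 57110 CPM in the 14 cells over 40 percent. Median ENO1 went from 2486, 1907 and 1087 CPM below the limit to 457.7 and 147.6 CPM above it. Median RPL3 was 1239, 1544 and 1650 CPM below the limit, then 368.4 and 113.6 CPM. All cells in the highest of these classes were from batch 1. Cells of 1 batch are not replicates, and no test was made on them.

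Nuclear long noncoding RNAs as a list had a median log2 fold change of 0.38, against -1.0 for all genes and -0.24 for genes of 50 to 500 CPM. With thinned cells these medians were 0.80, -0.52 and -0.25. Of 16 tested members, 1 rose (MALAT1) and none fell, and the high libraries were all above the low ones for 4 (25.0 percent) and all below for 2 (12.5 percent), against 5.25 and 25.1 percent of all genes and 11.2 and 18.1 percent of genes of at least 50 CPM. KCNQ1OT1, an antisense RNA of an imprinted locus whose reads cannot be told apart from those of the overlapping KCNQ1 without strand, had 280.0, 223.5 and 693.5 CPM against 110.5, 51.7 and 77.4 CPM and did not pass (log2 fold change 2.20, adjusted p = 0.251, edgeR). A minority of cells carried these sums: 17 of 35 high cells lay above the low median of their batch, and the median high cell had 20.4, 0 and 395.7 CPM against 30.4, 3.83 and 13.4 CPM. The other members without overlap and higher, PVT1 with 0.86 and SCHLAP1 with 1.18 on the log2 scale, were picked after their values were seen. They too were uneven among cells, with 19 and 18 of 35 high cells above the low median. The median high cell was below the median low one for PVT1 in batch 2 (18.5 against 39.8 CPM) and for SCHLAP1 in batch 1 (44.5 against 52.98 CPM). TUG1 was at -0.03. The summed list, most of it MALAT1, took 7.50, 3.21 and 10.6 percent of nuclear reads in high libraries and 2.16, 1.23 and 2.17 percent in low ones.

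Splicing and nuclear speckle factors, whose proteins assemble on pre-mRNA, had a median of 0.46. None of the 29 passed. With no overlap between classes 11 were higher (37.9 percent) and 1 was lower (3.45 percent), against 11.2 and 18.1 percent of genes of at least 50 CPM and 13.4 and 37.3 percent of genes of at least 500 CPM. NKTR, SON and RBM25, chosen for display after their values were seen, had log2 fold changes of 1.45, 0.89 and 1.08 (adjusted p = 0.249, 0.349 and 0.349, edgeR). SON, a scaffold protein of the speckle, had 1025, 1093 and 1067 CPM in high and 631.0, 531.2 and 556.4 CPM in low libraries. The lower member was SRSF6, a splicing factor of the serine and arginine rich family, with 1149, 2022 and 1894 against 2242, 3508 and 3014 CPM (log2 fold change -0.81, adjusted p = 0.285, edgeR). HNRNPH1, the most read member, had 0.46 with overlapping libraries. The list took 1.69, 1.99 and 1.98 percent of nuclear reads in high libraries and 1.45, 1.62 and 1.596 percent in low ones.

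Cytosolic metabolic and structural genes, a list of glycolytic enzymes, actins, tubulins and other abundant soluble proteins, took a smaller share of nuclear reads in every high library than in any low one. The summed share was 1.52, 1.71 and 1.04 percent in high and 3.07, 3.26 and 3.33 percent in low libraries. Of 31 tested members, 1 fell (ENO1) and none rose. The high libraries were all below the low ones for 20 of the 31 (64.5 percent) and all above for none. Of these members 17 had a mean of at least 500 CPM, where 37.3 percent of all genes were all below, against 18.1 percent of genes of at least 50 CPM. The median was -1.07. Glyceraldehyde-3-phosphate dehydrogenase, GAPDH, had 706.7, 1695 and 502.5 CPM against 2985, 3044 and 3285 CPM (log2 fold change -1.88, adjusted p = 0.100, edgeR), and 33 of 35 high cells were below the low median. Lactate dehydrogenase A, LDHA, had 1644, 1631 and 621.3 CPM against 4250, 3903 and 5497 CPM (log2 fold change -1.91, adjusted p = 0.114, edgeR). Triosephosphate isomerase, TPI1, had a smaller difference of -1.04.

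**Figure D4:**
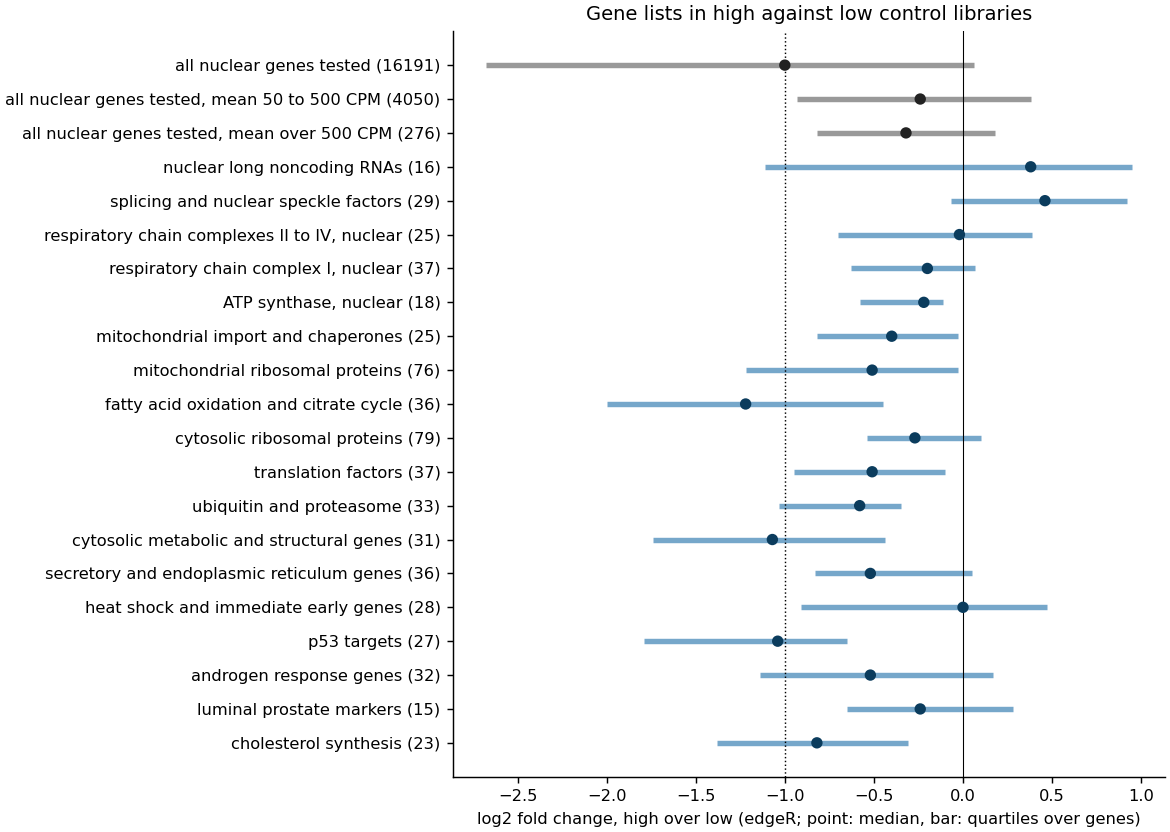
Log2 fold changes of high over low control libraries (edgeR) for all tested genes, for 2 ranges of level and for 18 gene lists, with the number of tested genes in brackets; points are medians, bars run from the first to the third quartile over genes, and the dotted line is the median of all genes, -1.0. Nuclear noncoding RNAs and splicing factors sit right of 0 and the cytosolic metabolic list at -1.07; the medians of the respiratory chain lists, ATP synthase, cytosolic ribosomal proteins and luminal markers, all between -0.27 and -0.02, turn positive with DESeq2, and that of the heat shock list, -0.00, turns positive with TMM scaling and DESeq2.

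Cytosolic ribosomal proteins, the protein part of the translation machinery, had a median of -0.27, which became 0.05 with DESeq2. Of 79 members 1 fell (RPL3), and the high libraries were all below for 20 (25.3 percent) and all above for 6 (7.59 percent). Over all genes these shares were close to that, at 25.1 and 5.25 percent. They were 18.1 and 11.2 percent for genes of at least 50 CPM, a level that 70 of the 79 reached. For genes of at least 500 CPM, which 27 reached, they were 37.3 and 13.4 percent. RPL15 had 1088, 1314 and 1326 against 1906, 1746 and 2071 CPM (log2 fold change -0.62), and RPS6 had -0.65, neither past the threshold (adjusted p = 0.349 for both, edgeR). The summed list took 3.69, 3.13 and 2.87 percent of nuclear reads in high libraries and 3.71, 3.79 and 4.45 percent in low ones. Among 37 translation factors none passed, the median was -0.51, and 16 were lower (43.2 percent) and 1 higher with no overlap. The lower share was 18.1 percent for genes of at least 50 CPM, a level that 33 of the 37 reached. It was 37.3 percent for genes of at least 500 CPM, which 11 reached. EIF2S3, the gamma subunit of the initiation factor that brings the starter tRNA, had 623.8, 1103 and 714.2 against 1426, 1834 and 2070 CPM (log2 fold change -1.15, adjusted p = 0.246, edgeR). NACA, which binds nascent chains at the ribosome, had -0.70.

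Ubiquitin and proteasome genes, the machinery of protein degradation, had a median of -0.58. None of 33 passed, and 18 were lower (54.5 percent) and none higher without overlap. The lower share was 18.1 percent for genes of at least 50 CPM, a level that 31 members reached, and 37.3 percent for genes of at least 500 CPM, which 7 reached. PSMB5, a catalytic subunit of the proteasome, had 458.5, 624.7 and 449.3 CPM against 1309, 1559 and 1295 CPM (log2 fold change -1.45, adjusted p = 0.100, edgeR). The list took 0.806, 1.06 and 0.756 percent of nuclear reads in high libraries and 1.33, 1.44 and 1.27 percent in low ones.

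None of the nuclear genes for the respiratory chain passed, among 37 tested for complex I and 25 for complexes II to IV. Their medians were -0.20 and -0.02, which became 0.12 and 0.30 with DESeq2. Members differed in direction: 3 of complex I were higher (8.11 percent) and 6 lower (16.2 percent) without overlap, near the 11.2 and 18.1 percent of all genes of at least 50 CPM. For complexes II to IV the counts were 5 higher and 8 lower of 25, both larger shares than these 11.2 and 18.1 percent. The level of 50 CPM was reached by 24 of the 25, and 500 CPM by 8. For all genes of at least 500 CPM the shares were 13.4 percent higher and 37.3 percent lower. NDUFB9, an accessory subunit of complex I, had 1075, 776.1 and 705.6 CPM against 313.0, 309.6 and 351.6 CPM (log2 fold change 1.37, adjusted p = 0.251, edgeR), and NDUFB4, also accessory, had 0.49. COX7A2, a small subunit of cytochrome c oxidase, had 963.7, 885.8 and 917.6 against 547.7, 492.7 and 599.2 CPM (log2 fold change 0.76, adjusted p = 0.349, edgeR). CYCS, the soluble electron carrier cytochrome c, went the other way with 606.0, 595.3 and 598.3 against 1002, 944.1 and 990.8 CPM (log2 fold change -0.71, adjusted p = 0.349, edgeR).

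ATP synthase genes of the nucleus had a median of -0.22 over 18 members, 0.10 with DESeq2, with none called. Without overlap 6 were lower (33.3 percent) and 1 higher (5.56 percent), against 18.1 and 11.2 percent of genes of at least 50 CPM. That level was reached by 17 members, and 500 CPM, where 37.3 percent of genes were lower, by 4. The catalytic beta subunit ATP5F1B had 1148, 1891 and 1123 against 2639, 2914 and 2512 CPM (log2 fold change -1.0, adjusted p = 0.246, edgeR), and the alpha subunit ATP5F1A had -1.28. Fatty acid oxidation and citrate cycle genes had a median of -1.22 over 36 members, none called, with 14 lower (38.9 percent, against 25.1 percent of all genes) and none higher without overlap. DLD, a subunit shared by the pyruvate and oxoglutarate dehydrogenase complexes, had 125.3, 331.8 and 61.3 against 723.1, 701.0 and 723.7 CPM (log2 fold change -2.40, adjusted p = 0.215, edgeR). That list took 0.403, 0.520 and 0.285 percent of nuclear reads in high and 0.681, 0.668 and 0.642 percent in low libraries.

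Mitochondrial ribosomal proteins, which translate the mitochondrial mRNAs, had a median of -0.51 over 76 members, with none called. Without overlap 17 were lower (22.4 percent) and 3 higher (3.95 percent), near the shares over all genes, 25.1 and 5.25 percent. For genes of at least 50 CPM, a level that 54 of the 76 reached, the shares were 18.1 and 11.2 percent. MRPL42 had 570.4, 378.1 and 621.0 against 951.4, 796.1 and 818.5 CPM. Import and chaperone genes had a median of -0.40 over 25 members, none called. HSPE1, the co-chaperonin of the mitochondrial matrix, had 721.2, 622.1 and 505.1 against 308.9, 370.9 and 355.8 CPM (log2 fold change 0.82), while its partner HSPD1 had 769.4, 783.7 and 913.3 against 1044, 1175 and 1087 CPM (-0.43), neither past the threshold (adjusted p = 0.349 and 0.525, edgeR). BNIP3L, a receptor that marks mitochondria for autophagy, had at most 235.2 CPM in a high library and at least 622.3 CPM in a low one (log2 fold change -2.15, adjusted p = 0.0825, edgeR). The list of mitophagy and mitochondrial dynamics had a median of -0.49 over 21 members, or -0.18 with thinned cells. Among 11 regulators of mitochondrial biogenesis none passed, and the transcription factor YY1 had 1.32 with no overlap. A minority of the high cells carried it: 16 of 35 were above the low median, and the median high cell was below the median low one in batch 1 and in batch 2, where it had 68.4 against 111.6 CPM.

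Stress and death lists gave no call. Integrated stress response genes had a median of -0.59 (32 tested), oxidative stress genes -0.72 (24 tested), p53 targets -1.04 (27 tested), and apoptosis genes acting at the mitochondrion -1.90 (31 tested), which became -1.20 with thinned cells and -0.78 without the batch block. CCNG1, cyclin G1 and a p53 target, had 274.3, 110.5 and 96.4 against 769.6, 510.6 and 585.4 CPM (log2 fold change -2.10, adjusted p = 0.114, edgeR). The cytosolic chaperone HSPA8 had 1976, 1949 and 2244 against 3568, 3960 and 3290 CPM (-0.81) and HSP90AB1 had -0.55, while the heat shock and immediate early list as a whole had a median of -0.00, 0.15 with TMM scaling. Genes of G2 and mitosis had a median of -1.26 over 46 members, with 8 lower (17.4 percent) and none higher without overlap. The lower and higher shares were 25.1 and 5.25 percent over all genes. They were 18.1 and 11.2 percent for genes of at least 50 CPM, which 32 of the 46 reached. S phase genes had a median of -0.98 over 40, or -0.56 with thinned cells. Cell cycle lists move between batches: the G2 and mitosis list took 0.548, 0.654 and 0.233 percent of nuclear reads in high and 0.720, 0.907 and 0.406 percent in low libraries.

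Luminal prostate markers were read in both classes. They had a median of -0.24 over 15 members, 0.07 with DESeq2 and -0.14 with thinned cells, none called, and took 0.456 to 0.623 percent of nuclear reads in high and 0.6252 to 0.748 percent in low libraries. FOLH1, prostate-specific membrane antigen, had a log2 fold change of 0.47. Prostate-specific antigen, KLK3, was at -0.24 with overlapping libraries, and its sign depended on the fit. Cholesterol synthesis genes had a median of -0.82 over 23 members, none called. EBP, a sterol isomerase, had 59.2, 277.8 and 59.5 against 332.9, 635.3 and 303.5 CPM (log2 fold change -2.02, adjusted p = 0.246, edgeR). SULT2B1 itself was near the floor in both classes: it had 0.590, 0 and 0 CPM in high libraries, 5 reads of 1 cell, and 2.53, 1.74 and 4.83 CPM in low ones.

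Markers of other cell types were low in both classes, but not equally so in every list. Of 7 basal markers, KRT5, TP63 and COL17A1 had no read in any high cell, and the list took 0.0149, 0.00509 and 0.0507 percent of nuclear reads in high and 0.00838, 0.00623 and 0.00818 percent in low libraries of batches 1, 2 and 3. Nearly all of it was ITGA6, an integrin, and DST, a linker of the cytoskeleton. ITGA6 had 46.6, 31.3 and 500.5 CPM against 42.8, 28.8 and 55.4 CPM, and 1 cell gave 91.6 percent of its reads in the high library of batch 3. DST had 101.3, 19.4 and 6.04 CPM against 39.2, 33.01 and 26.1 CPM, and 1 cell gave 76.1 percent of its reads in the high library of batch 1. Mesenchymal markers took 0.0447, 0.0176 and 0.107 percent in high and 0.0208, 0.0194 and 0.0269 percent in low libraries, so the list was higher in the high library of batches 1 and 3 and lower in batch 2. The matrix protein fibronectin, FN1, made up most of it, with 392.8, 170.4 and 1068 CPM against 193.4, 186.8 and 254.6 CPM. Of the 35 high cells, 30 had a read of FN1. The top cell of each high library gave 21.4, 57.5 and 39.5 percent of its FN1 reads. Vimentin, VIM, had 36.4, 3.26 and 0 CPM against 5.73, 3.67 and 8.75 CPM, while DCN and LUM were at 0 in high cells. VIM was read in 6 high cells. In the high libraries 1 cell gave 76.6 percent of its reads in batch 1 and 100 percent in batch 2. Of 10 blood and endothelial markers, PTPRC was at 0 in every control cell and 8 had no read in high cells. Neuroendocrine markers took at most 0.00254 percent in any library, with CHGA at 0 in high cells. The part of these levels in the results was not tested.

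Some nuclear genes share sequence with the mitochondrial genome, being old insertions of it, and reads can be exchanged between copy and original. They are therefore set apart and described without a test. The copies took 1.22, 0.448 and 0.536 percent of nuclear reads in high and 0.0917, 0.100 and 0.0837 percent in low libraries. MTATP6P1 had 10210, 3806 and 4427 CPM against 747.1, 826.7 and 680.9 CPM and was among the genes past the threshold, which is no support since its sequence is shared with a gene whose reads chose the cells. Of the 17 copies, 10 were higher (58.8 percent) and 3 lower (17.6 percent) without overlap, against 5.25 and 25.1 percent of all genes. Without these copies in the table, 6 nuclear genes passed, all of them among the 7.

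Fold changes differed with the length of the gene. The 4080 protein-coding genes with a mean of at least 50 CPM were divided into sixths of 680 by the span from start to end in GENCODE 29. The median log2 fold change was -0.44 in the shortest sixth (0.435 to 11.7 kb), then -0.48, -0.38, -0.28 and -0.09, and 0.17 in the longest sixth (115.2 to 2060 kb). In the shortest sixth the high libraries were all above the low ones for 6.76 percent of genes and all below for 26.2 percent. In the longest sixth these shares were 19.7 and 9.12 percent. Ordered by the longest annotated transcript the medians went from -0.42 (up to 2.01 kb) to 0.17 (from 7.17 kb). With TMM scaling the outer sixths by span were at -0.30 and 0.31, and with thinned cells at -0.47 and 0.16. Span, transcript length and level go together among genes, and their separate parts were not tested.

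**Figure D5:**
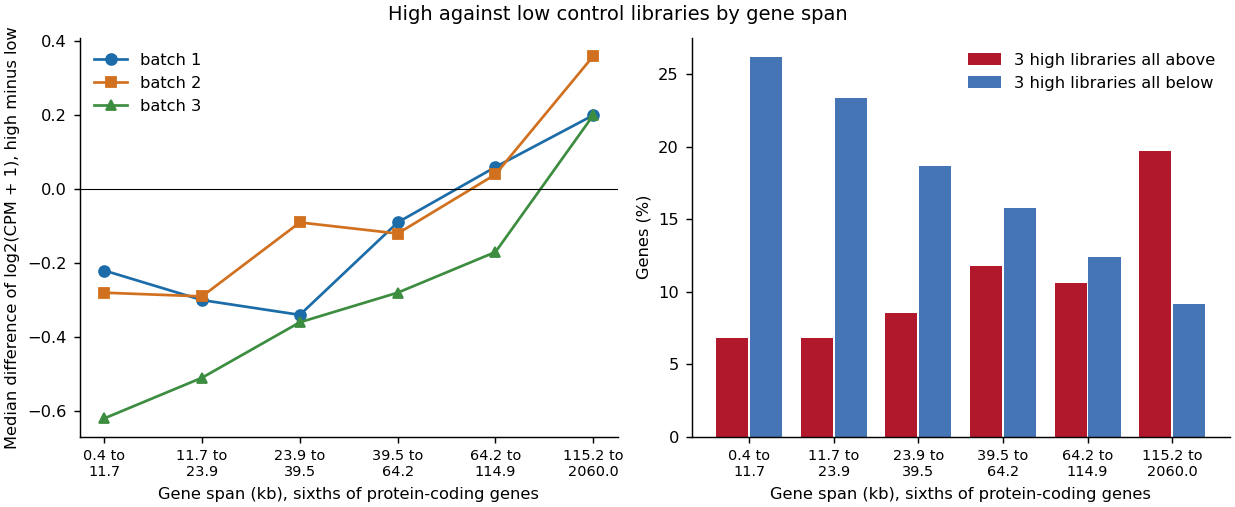
Left, median over genes of the difference in log2(CPM + 1) between the high and the low library of each control batch, in sixths of protein-coding genes by gene span in kb; right, percent of genes in each sixth whose 3 high libraries were all above (red) or all below (blue) the 3 low ones. The longest sixth is at 0.20, 0.36 and 0.20 in batches 1, 2 and 3 and the shortest at -0.22, -0.28 and -0.62.

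Knockdown cells offered a second look with fewer high cells. The high class held 6 of 66 cells in batch 1, 0 of 65 in batch 2 and 2 of 61 in batch 3, so the fit used batches 1 and 3. These cells were not used to choose the control cells. Of 16888 genes tested with edgeR, 2 passed (0.0118 percent). One was the mitochondrial copy MTATP6P1, again without support from the test. The other was CXCL10, a chemokine with 8.87 and 0 CPM in the high libraries and 661.9 and 1271 CPM in the low ones. The high libraries are far smaller, and their values rest on 17 and 0 reads. How CXCL10 was spread among the low cells was not tested. Of the 12 named genes, all 12 went in the control direction in batch 1 and 10 in batch 3, NEAT1 and N4BP2L2 being the exceptions. These are summed libraries: by the median cell, 10 of 12 went that way in batch 1, where TANC1 (12.3 against 88.9 CPM) and N4BP2L2 (180.9 against 337.7 CPM) did not, and 11 of 12 in batch 3, where NEAT1 did not. MALAT1 had 133700 and 25530 CPM in high against 20770 and 15430 CPM in low knockdown libraries (log2 fold change 1.71, adjusted p = 0.0749, edgeR). ENO1 had a log2 fold change of -2.54, C6orf62 of -3.33, BROX of -2.25, EEF1A1P5 of -2.03 and SLC30A4 of -3.44. RPL3 was less separated, at -1.01: the 2 high cells of batch 3 had 1227 and 1235 CPM, near the low median of 1340 CPM. The difference between arms in the effect of the class was tested for 15518 genes in 1 edgeR fit, and 1 gene passed (0.00644 percent), given with the results for a closer look. At 50000 nuclear reads the median high knockdown cell had 2914 genes in batch 1 and 3146 in batch 3, against 5582 and 5624 in the low cells.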

How the data were processed

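The authors deposited raw counts: whole numbers of reads for each gene in each cell, with no molecular identifiers. The tools listed, per the submitters' processing notes, are edgeR 3.2.2, HTSeq 0.6.1, TopHat2 2.1.0 and FastQC 0.11.3, and the build is GRCh38.p3. The sources used here do not give the annotation release or the strand setting, so overlapping and near-identical genes can exchange reads. Control cells had 193281 to 2353816 reads in genes. 4 columns of values were not used. Of 36135 Ensembl identifiers, 34891 were named through the gene name table, 257 through GENCODE 29, and 987 not.

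Nuclear counts were summed per class and batch. Genes were tested by robust quasi-likelihood in edgeR 4.0.16 under R 4.3.3 (with limma 3.58.1), with nuclear totals as library sizes. The fit used filterByExpr with a minimum count of 10, batch as a block and Benjamini-Hochberg adjustment. It was also run on simulated counts that had no difference between batches and the same spread in both classes. Those counts could not check the block or the effect of unequal cell numbers. The labels' batch pairs the libraries; deviations of same-batch libraries correlated by 0.0495, 0.0838 and 0.0577. CPM are relative, so amounts of RNA per cell were not measured. The p-values set the size of the difference between high and low libraries against its spread from batch to batch. That spread was estimated with information shared across genes, and the sampling of few high cells is part of it. Differences in level between batches are taken up by the block. Doublets were treated by the submitters' inspection of capture sites. Thinning drew reads without replacement.

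Named genes were the 12 largest called rises and falls of at least 5 CPM with 1 direction in all batches and a read in most cells, filled to 6 by p, then up to 4 members per list. Alternatives were TMM, DESeq2 1.42.0, voom, other filters, limits, depths and left-out cells or batches. Members, lists and tests were chosen with earlier results of these data known. Python 3.11.15, numpy 2.4.6, pandas 2.3.3, scipy 1.17.1 and matplotlib 3.10.9 were used. Genes named MTRNR2L were added to the mitochondrial copies after the data were seen. Some genes are not reported here.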

Additional observations from a re-analysis of the deposited data

Results flagged for a closer look

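Among the 8 high control cells of batch 2 and the 6 of batch 3, 10 measures were checked in each for a cell far from the others, 20 checks in all, of which chance flags about 1 in 20. In batch 2, 1 cell had 2672 genes at 50000 nuclear reads, against 3540 in the next lowest cell. For genes that were lower in high cells, a lone cell often stood far above its class. The highest cell was taken gene by gene and need not be the same cell. In batch 2 the highest values were 863.8 CPM of RPL3 (next 377.4), 3249 CPM of SLC30A4 (next 359.0) and 1374 CPM of EEF1A1P5 (next 554.8). In batch 3 they were 1174 CPM of ENO1 (next 332.3), 1362 CPM of C6orf62 (next 506.4) and 1753 CPM of SLC30A4 (next 115.1).

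PDZD8 was the gene whose difference between high and low cells itself differed between the arms (knockdown minus control -8.88 on the log2 scale, adjusted p = 0.0192, edgeR). In control batches 1, 2 and 3 it had 259.3, 506.5 and 183.5 CPM in high and 282.4, 390.0 and 348.3 CPM in low libraries. In knockdown batches 1 and 3 it had 0.522 and 0.514 CPM in high, against 251.3 and 324.6 CPM in low libraries. The knockdown high libraries hold 6 and 2 cells and 1917115 and 1943818 nuclear reads, so their PDZD8 values lie at the floor.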

How the results depend on the processing

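The 8 calls of the control comparison, 1 of them a mitochondrial copy, became 3 with TMM scaling (all among the 8), 1141 with DESeq2 and 38 with voom quality weights (1 of the 8 in each), 80 without a filter on low counts, 43 with cells thinned to 50000 nuclear reads (all 8 among both), and 3 with a limit of 15 percent (all among the 8). They became 0 with a mean of at least 5 CPM and 0 without the replicate block, where 861 and 2686 genes had an unadjusted p under 0.05 (edgeR). Leaving out a batch gave 2 (without batch 1), 55 (without batch 2) and 88 (without batch 3). Without cells over 50 percent, or without cells of 10 to 20 percent, both alternatives added after seeing the data, 9 passed, including all 8. A limit of 30 percent left no high cell in batch 2, so that fit across genes was not run. The cause of these shifts was not tested.

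The mean difference in genes at equal depth was -1614 at 20000 and -2330 at 100000 nuclear reads, -2299 with a limit of 30 percent (batches 1 and 3), -1639 counting genes with at least 2 reads, and -2121 to -1860 when a batch was left out. Knockdown calls were 1 with TMM scaling and 0 without the replicate block (5609 genes at an unadjusted p under 0.05, edgeR). KLK3 changed sign with DESeq2 (0.07) and ranged from -0.61 to 0.33 when a batch was left out, positive without batch 3. The sampling of few high cells limits all gene values: 6 to 21 cells per library.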
